A study of Mus musculus with 16 samples.

Results

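The comparison described here is that of hippocampal RNA from SAM/R-1 mice fed coral calcium hydride (CCH) with that from SAM/R-1 mice on the same feed without it. The members were chosen by the array titles, which gave 4 arrays titled SAM/R-1 + CCH and 4 titled SAM/R-1 + CE, 8 of the 16 arrays of the study. The senescence-accelerated mice (SAM) were bred from the AKR/J strain; SAM/R-1 is the line that resists early ageing and serves as the control line for the senescence-prone SAM/P-8, whose other 8 arrays were used here only where the effects in both lines are set side by side. All mice were male and 8 weeks old when the feeding began, and both SAM/R-1 groups then received CE-2 rodent feed for 8 weeks, with 0.1% CCH in the CCH group and none in the control group. The age field of the labels repeats the 8 weeks, so the age at dissection is that start plus the feeding time only if the series' design text is taken as written. The labels number the replicates within each group, but do not say whether each is 1 animal, so the p-values cover no more than the scatter among these 8 arrays and the other 8 in the fit.

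CCH is a calcium product made from coral and loaded with hydrogen, and is given as a feed supplement. The hippocampus is the part of the forebrain that lays down new memories. Its principal neurons switch on immediate early genes within minutes of activity, and these encode transcription factors such as Fos and Egr4 and synaptic proteins such as Arc. Its cells also run a circadian clock, in which the transcription factors CLOCK and BMAL1 drive the Per, Cry and Rev-erb genes, whose products feed back to restrain them, so the level of a clock gene depends on the hour at which tissue is taken. The hour of dissection was not given in the sources used here.

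Each array is a field of probes on a glass slide, read in 1 colour, and a probe's brightness reports the amount of its RNA. Levels are given as log2 of the deposited processed signal minus that array's 75th percentile, so 0 is the brightness of the 75th percentile probe, and a difference of 1 is a 2-fold change; levels of different probes are not compared. Probes well above background on all 4 arrays of either SAM/R-1 group were tested, which left 28786 of 41174 probes and 13379 named genes. Between 30683 and 33333 spots were well above background on the CCH arrays and between 30552 and 31901 on the control arrays, and array pairs correlated at 0.992 to 0.997. Each group lay on a slide of its own, so the CCH feed and the slide cannot be told apart in anything that follows. Markers of the choroid plexus, the tissue inside the ventricles beside the hippocampus that secretes cerebrospinal fluid, separated CCH replicates 2 and 3 from CCH replicates 1 and 4. Ttr, the most abundant product of that tissue, was at 2.94, -3.31, -1.42 and 2.88 on CCH arrays 1 to 4 and at 3.04, 3.42, 2.50 and 0.31 on control arrays 1 to 4. Those same CCH arrays 2 and 3 lay apart from the others on the first principal component, at 29.4 and 25.5 against -27.2 to 5.3 for the other 6 arrays.

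Few transcripts passed the adjusted threshold. In the limma fit with Benjamini-Hochberg adjustment, 36 probes (0.125% of those tested) passed an adjusted p of 0.05, 3 of them higher (0.0104%) and 33 lower (0.115%) with CCH. In the same fit 3133 of the 28786 probes had an unadjusted p under 0.05. Taking the brightest probe of each gene, 17 genes passed (0.127%), and counting any probe, 19 named genes did. The 2 named genes that rose were Ppp2r5e and Bcor, and the 17 that fell included the spindle checkpoint kinase Bub1, the keratin Krt5 and 5 olfactory receptor genes. The other 16 probes past the threshold have no gene name here, and 15 of them were lower. The median difference over all genes was -0.02, and 97.6% of genes differed by less than 0.5. The count depended on which array was left out. It was 2 without control array 3, 8 without CCH array 3, and 14 and 19 without control arrays 2 and 1. It was 22 without CCH array 2 or 4, 25 without CCH array 1 and 35 without control array 4. With quantile normalization 43 probes passed, 15 higher and 28 lower.

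Ppp2r5e, which encodes a B56-type regulatory subunit that directs protein phosphatase 2A to its substrates, rose 1.32-fold. Its level was 1.00, 0.85, 1.02 and 1.00 on the CCH arrays and 0.49, 0.70, 0.53 and 0.56 on the control arrays, a difference of 0.40 ± 0.06 (SE, n = 4 and 4, adjusted p = 0.0306). Every CCH array lay above every control array, and none of the 36 probes past the threshold had overlapping groups (in 8.75% of all probes tested they did not overlap). A further probe of the gene differed by only 0.10. Bcor, the BCL6 corepressor that joins a Polycomb-type repressor complex, rose 1.27-fold. Its level was -0.41, -0.42, -0.31 and -0.47 with CCH and -0.66, -0.77, -0.72 and -0.82 without, a difference of 0.34 ± 0.06 (SE, n = 4 and 4, adjusted p = 0.0425). The groups did not overlap at that probe, but 2 other Bcor probes differed by -0.46 to -0.12, so the probes of the gene disagree. Out of 25 other settings and left-out arrays, Ppp2r5e missed the threshold in 9 and Bcor in 19. In SAM/P-8 the same probes differed by 0.38 (adjusted p = 0.0222) and 0.30 (adjusted p = 0.0387).

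Of the higher genes below the threshold, only those whose groups did not overlap were considered for this paragraph. The smallest adjusted p among them fell to 2 clock genes and 6 of other roles. Katnal1, a katanin-like microtubule-severing subunit, was at 0.97, 0.99, 0.97 and 0.86 with CCH and at 0.69, 0.67, 0.70 and 0.69 without, a difference of 0.26 ± 0.05 (SE, n = 4 and 4, adjusted p = 0.0528). Creb1, a transcription factor that switches on activity-dependent genes, was at -4.03, -4.08, -3.98 and -4.17 against -4.38, -4.33, -4.77 and -4.49, a difference of 0.42 (adjusted p = 0.0803); its other probes differed by 0.11 to 0.17. Xdh, which makes uric acid, differed by 0.86 (adjusted p = 0.0828; other probe 0.52), with levels of -4.65, -4.57, -4.97 and -5.10 against -5.66, -5.29, -6.02 and -5.77. Xdh was well above background on all 4 CCH arrays but on only 3 of 4 control arrays. It was thus tested only through the group where it was high. Cdh5, the cadherin of endothelial junctions, differed by 0.77 (adjusted p = 0.0912) at a dim probe and by 0.32 at another. St8sia4, which adds polysialic acid to neural cell adhesion molecules, differed by 0.34 (adjusted p = 0.0828; other probe 0.21) and Eif4ebp2, a repressor of cap-dependent translation, by 0.36 (adjusted p = 0.088). Per2 and Ciart are given with the clock genes.

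The falls were measured mostly at dim probes, and 15 of the 33 probes have no gene name here. Foxe3, a forkhead factor of the lens, had the smallest adjusted p: its level was -5.65, -5.83, -6.02 and -5.69 with CCH and -4.88, -4.80, -4.98 and -4.98 without, a difference of -0.89 ± 0.09 (SE, n = 4 and 4, adjusted p = 0.00277). Bub1, a kinase of the spindle checkpoint in dividing cells, was at -3.26, -3.46, -3.50 and -3.08 against -2.51, -2.60, -2.49 and -2.23, a difference of -0.87 ± 0.12 (adjusted p = 0.0145). Krt5, a keratin of basal epithelia, was at -3.92, -4.35, -3.98 and -4.0 against -3.03, -3.29, -3.33 and -3.17, a difference of -0.86 ± 0.12 (adjusted p = 0.0145). Each CCH array was below each control array for these genes. Sit1, an adaptor that dampens T cell receptor signalling, was at -5.25, -5.40, -5.68 and -5.08 against -4.48, -4.40, -4.39 and -4.47, a difference of -0.92 ± 0.13 (adjusted p = 0.0145). F9, the clotting factor IX made by the liver, was at -4.82, -5.24, -5.28 and -4.82 against -4.10, -4.02, -3.98 and -4.34, a difference of -0.93 ± 0.16 (adjusted p = 0.038). Kcp, a secreted modulator of bone morphogenetic protein signalling that was named after its values were seen, was at -2.04, -2.25, -2.27 and -2.04 against -1.79, -1.74, -1.73 and -1.84, a difference of -0.38 ± 0.06 (adjusted p = 0.033).

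The other named falls ranged from -0.94 to -0.44. The bitter taste receptor Tas2r118 was lower by the largest step, at -5.87, -6.07, -6.23 and -5.96 with CCH and -5.04, -4.84, -4.99 and -5.52 without (difference -0.94 ± 0.16, adjusted p = 0.0362), and only 2 of its 4 CCH arrays were well above background. Spem2, a sperm maturation gene, differed by -0.75 ± 0.11 (adjusted p = 0.0155), and the pluripotency factor Utf1 by -0.69 ± 0.12 (adjusted p = 0.0425). The gel-forming mucin Muc5ac differed by -0.79 ± 0.13 (adjusted p = 0.0306), while its other probe differed by -0.11; 3 of the 4 CCH arrays were well above background for Muc5ac, against 4 of 4 control arrays. Ly6g5c, of the Ly6 family of surface proteins, differed by -0.66 ± 0.11 (adjusted p = 0.0311), and Inhbe, an activin beta subunit, by -0.59 ± 0.10 (adjusted p = 0.048). No array of either group crossed into the other's range in any of these genes.

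Olfactory receptors, the odorant receptors of the nose, were counted as a family after their calls were seen. Of 108 olfactory receptor probes tested, 6 probes of 5 genes fell (5.56%). That share was 0.115% among all probes, and 0.504% were past the threshold among the dimmest 5758. A negative difference was found in 92 of the 108, with a median of -0.35. A dim probe could enter the test through either group alone, which can tilt such a count. Restricting the family to the 87 probes that cleared background on every SAM/R-1 array left 73 negative, with a median of -0.32. After normexp, another way to correct the background, only 5 of the 108 were negative and the median was 0.29, so the family's direction flipped. Among the 87, normexp also left 5 negative, with a median of 0.27. Olfr1215 was at -5.63, -6.23, -6.01 and -5.78 with CCH and -5.22, -5.11, -5.05 and -4.94 without (difference -0.83 ± 0.12, adjusted p = 0.0145). Olfr166 differed by -0.63 ± 0.10 (adjusted p = 0.0311), and its other probe by -0.36 (adjusted p = 0.041). Olfr1307, well above background on 3 of 4 CCH arrays, differed by -0.72 ± 0.12 (adjusted p = 0.033), Olfr1350 by -0.50 ± 0.08 (adjusted p = 0.0306) and Olfr549, named after its values were seen, by -0.44 ± 0.06 (adjusted p = 0.0145). All 5 genes were dim, with family levels around a median of -4.96, and receptors of this family are often near-identical in sequence, so probes may share targets.

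The falls lay near the dark end of the arrays, and most changed sign with another background correction. Of the 33 probes that were lower, 28 were among the dimmest 5758 of the 28786 probes, where 0.504% were past the threshold against 0.0304% of the brighter probes. Their median level was -4.57, against -1.24 over all probes tested, although 26 of the 33 were well above background on all 8 arrays. The negative control spots, which are meant to bind no target, had medians averaging -8.61 on the CCH arrays and -8.19 on the control arrays. These medians were -8.98, -8.77, -8.52 and -8.18 on CCH arrays 1 to 4 and -8.38, -8.12, -8.16 and -8.09 on control arrays 1 to 4. The array number is also the position on the slide. The part of the group difference in these medians, or of position, in the falls was not tested. With normexp no probe passed the threshold (2474 had an unadjusted p under 0.05), and of the 33 probes 26 turned to positive differences and 7 stayed negative, between -0.35 and 0.38. In those dimmest 5758 probes as a whole, 99.4% of probes were higher with CCH under normexp, with a median of 0.39, whereas without it 45.5% were higher and the median was -0.02. Bub1 at -0.35, Kcp at -0.16, Utf1 at -0.13, Krt5 at -0.04 and F9 at -0.01 kept a negative sign, while Foxe3 turned to 0.15 and Sit1 to 0.12. The 3 probes that rose stayed positive, at 0.32 for Bcor, 0.33 for Ppp2r5e and 0.55 for an unnamed probe. That unnamed probe, at a level of -5.94, was well above background on all 4 CCH arrays and on 0 of 4 control arrays. It was thus tested only through the group where it was high. It also lies among those dimmest 5758 probes, of which 99.4% were higher under normexp.

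**Figure D1:**
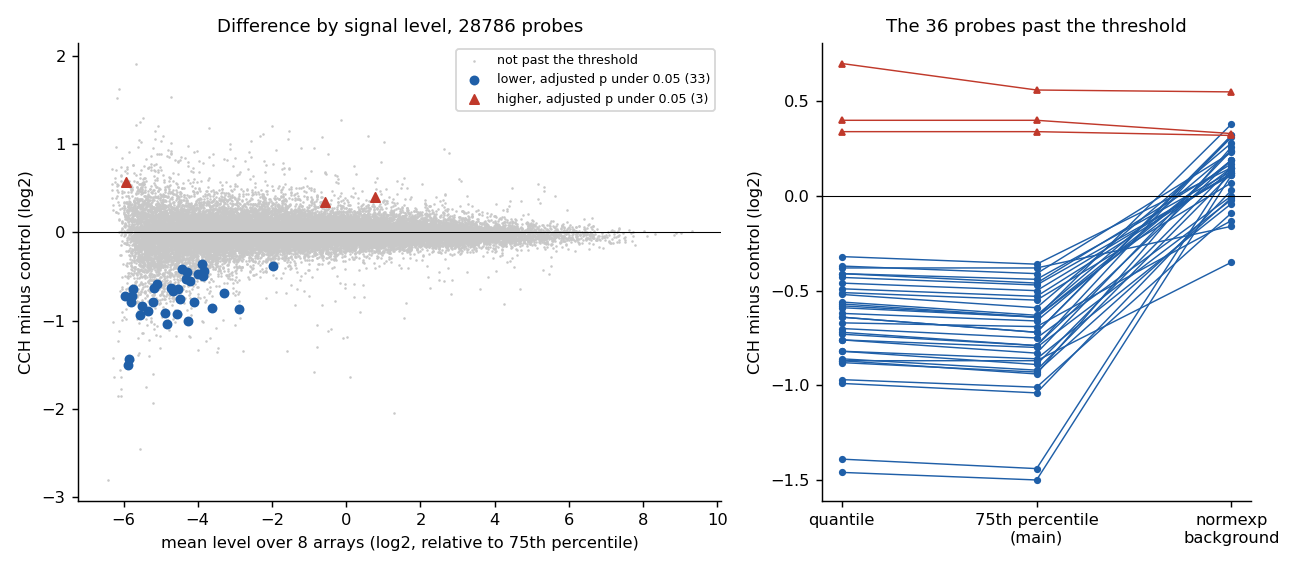
The left panel plots the difference between CCH and control (y axis, log2) against the mean level over the 8 SAM/R-1 arrays (x axis, log2 signal minus the array's 75th percentile), 1 point for each of 28786 probes, with the 33 lower and 3 higher probes past the adjusted threshold coloured. The right panel follows the difference of those 36 probes from quantile normalization through the 75th percentile scaling used here to normexp background correction: most lower probes sit at the dim left end, and 26 of the 33 end above 0.

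Circadian clock genes were higher with CCH as a group, though no member passed the adjusted threshold. Like all gene lists here, the clock list was chosen with earlier results of these data known. Of the 22 clock genes measured, 20 had a positive difference, with a median of 0.20, against 43.9% of all genes and a median of -0.02. An unadjusted p under 0.05 was reached by 10 clock genes, all higher (4.77% of all genes were higher at that p and 6.5% lower), and the CCH and control arrays did not overlap in 10, all higher (4.22% of all genes did not overlap with CCH above, and 5.67% with CCH below). Repressors of the loop, Per1, Per2, Cry1 and Ciart, and the output factors Dbp and Hlf were among the higher genes. Arntl, which encodes BMAL1, and Nr1d1, the Rev-erb alpha repressor, were the members with a negative difference.

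The E-box CACGTG, the sequence that CLOCK and BMAL1 bind, was searched on both strands in the 250 bases before each RefSeq start site of the GRCm38.p6 assembly. It occurred in 6.02% of the 32851 windows of that length and in at least 1 window of 6.86% of genes. Among the 18 clock genes that had a window, 5 held it (27.8%): Bhlhe41, Ciart, Cry1, Per1 and Tef. The windows of Ciart, Per1 and Cry1, which are among these 5, are shown with the E-box in capitals, and a match is a description, not a bound site. Per2, Hlf and Dbp, also higher with CCH, are not among the 5, and Per2 had no window.
Ciart promoter, chr3:95882229-95882478, minus strand: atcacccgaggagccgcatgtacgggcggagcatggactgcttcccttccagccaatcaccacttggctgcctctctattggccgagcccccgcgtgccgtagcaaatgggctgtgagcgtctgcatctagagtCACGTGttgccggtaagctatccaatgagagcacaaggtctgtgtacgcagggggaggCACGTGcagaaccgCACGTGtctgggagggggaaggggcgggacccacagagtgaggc
Per1 promoter, chr11:69098699-69098948, plus strand: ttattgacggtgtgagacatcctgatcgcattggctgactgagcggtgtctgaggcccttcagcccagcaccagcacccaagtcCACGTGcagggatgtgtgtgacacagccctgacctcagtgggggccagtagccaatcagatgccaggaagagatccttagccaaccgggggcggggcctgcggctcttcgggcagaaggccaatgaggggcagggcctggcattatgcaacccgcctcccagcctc
Cry1 promoter, chr10:85185055-85185304, minus strand: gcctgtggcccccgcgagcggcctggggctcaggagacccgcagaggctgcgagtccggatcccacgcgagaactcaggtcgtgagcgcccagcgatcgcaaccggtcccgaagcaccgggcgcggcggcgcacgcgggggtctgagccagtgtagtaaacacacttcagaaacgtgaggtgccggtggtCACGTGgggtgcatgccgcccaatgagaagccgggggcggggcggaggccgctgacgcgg
The Ciart window has 3 E-boxes, 38, 52 and 110 bases before the start. Per1 has 1 at 160 bases in the window shown, which is 1 of 2 in the table, and Cry1 has 1 at 54 bases.

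The Per and Cry repressors differed by 0.14 to 0.60. Per2 was at 0.11, -0.27, 0.36 and 0.13 on the CCH arrays and at -0.36, -0.46, -0.61 and -0.63 on the control arrays, a difference of 0.60 ± 0.12 (SE, n = 4 and 4, adjusted p = 0.0694). Per1, named after its values were seen like the members that follow it here, was at 2.70, 2.99, 2.94 and 2.88 against 2.54, 2.50, 2.45 and 2.30 (0.43 ± 0.11, adjusted p = 0.159). For both genes the lowest CCH array stood above the highest control array, but a further probe of Per2 differed by only 0.06. Cry1 was at -4.14, -4.77, -4.24 and -4.39 against -5.09, -5.01, -4.78 and -5.02 (0.59 ± 0.16, adjusted p = 0.199). Its CCH array 2 and control array 3 lay next to each other, at -4.77 and -4.78. Cry2 differed by 0.14 and Per3 by 0.37. Ciart, a repressor of CLOCK and BMAL1 whose window holds 3 E-boxes, was at -0.97, -0.69, -1.04 and -0.93 against -1.33, -1.29, -1.37 and -1.69 (0.51, adjusted p = 0.088), with no overlap. In SAM/P-8 Ciart differed by 0.61 (adjusted p = 0.0233).

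The output factors of the clock, PAR-domain proteins that carry its rhythm to other genes, were also higher. Hlf was at 1.74, 2.13, 1.86 and 1.81 with CCH and 1.68, 1.40, 1.24 and 1.19 without (0.51 ± 0.13, adjusted p = 0.171). Dbp was at 4.50, 4.61, 4.29 and 4.43 against 4.19, 4.22, 4.2 and 4.15 (0.27 ± 0.11). Neither gene's groups overlapped. Nr1d2, the Rev-erb beta repressor, differed by 0.23 ± 0.07 and Bhlhe41, a further E-box repressor, by 0.21. The activator Arntl differed by -0.12 ± 0.08 (adjusted p = 0.6), Clock by 0.01 and Nr1d1 by -0.01, with other Nr1d1 probes at -0.61 to -0.17. Other probes of the clock genes were higher in 10 of 15 cases, with a median of 0.06. Leaving out each SAM/R-1 array in turn kept the list's median between 0.17 and 0.23 with 18 to 20 genes higher, and under normexp 19 of 22 were higher with a median of 0.24. Averaged over the list, the deviation from each gene's mean over the 8 arrays was 0.07, 0.11, 0.16 and 0.10 on the CCH arrays and -0.04, -0.12, -0.11 and -0.17 on the control arrays. CCH arrays 2 and 3, which were low in choroid plexus markers, thus stood at 0.11 and 0.16 and the others at 0.07 and 0.10, all above the control arrays; the part of those markers in the clock result was not tested. In SAM/P-8, 17 of the 22 were higher, with a median of 0.14.

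**Figure D2:**
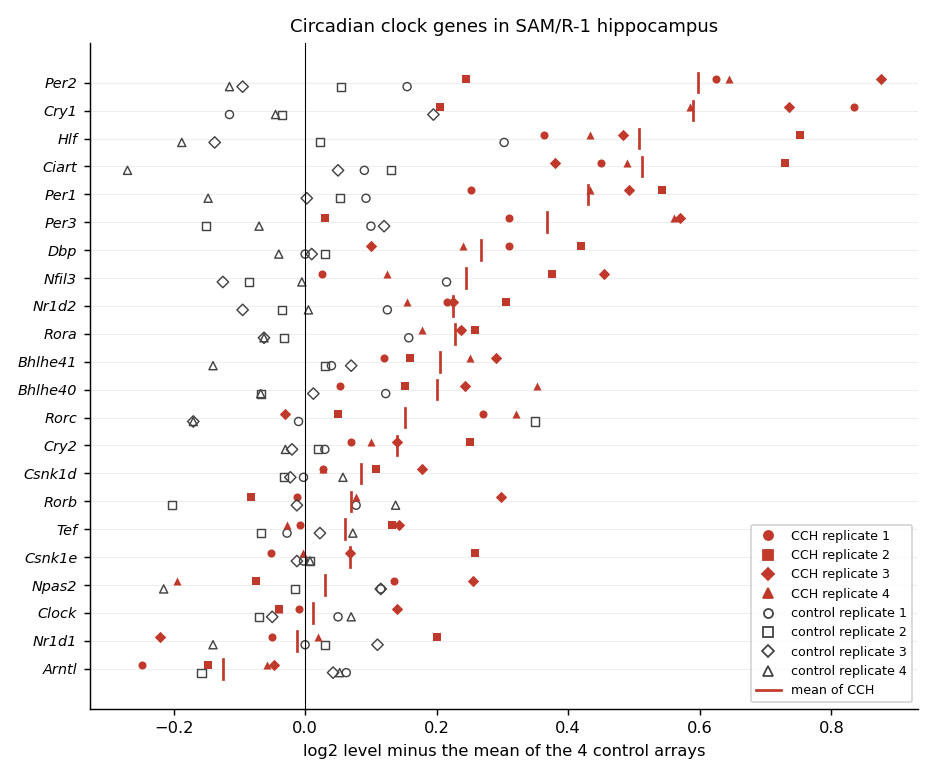
Each row is a clock gene, and each symbol is 1 of the 8 SAM/R-1 arrays, placed by its log2 level minus the mean of the 4 control arrays (x axis), with filled symbols for CCH, open symbols for control and a bar at the CCH mean. In Per2, Ciart, Per1, Hlf and Dbp all filled symbols lie to the right of all open ones, while the bar of Arntl lies to the left of 0.

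Immediate early genes had positive differences in 26 of 27 cases (43.9% of all genes), with a median of 0.38, and none passed the adjusted threshold. An unadjusted p under 0.05 was reached by 14, all higher (4.77% of all genes), but the groups were clear of each other in 4 of the 27 (4.22% of all genes with CCH above), Fosl2, Klf4, Maff and Nr4a2. Averaged over the list, the deviation from each gene's mean over the 8 arrays was -0.11, 0.29, 0.39 and 0.13 on CCH arrays 1 to 4 and -0.03, -0.24, -0.16 and -0.27 on control arrays 1 to 4. CCH array 1 thus lay among the control arrays. CCH arrays 2 and 3, which were highest, were also those with the lowest choroid plexus markers (14 of the 15 markers lower with CCH; list deviation 1.05, -2.15, -1.72 and 0.99 with CCH and 0.97, 1.48, 0.40 and -1.02 without), and the part of that difference in the early gene result was not tested. Without CCH array 1 the count at an unadjusted p under 0.05 was 17, and without CCH array 3 it was 9. The list's median stayed between 0.30 and 0.44 over all left-out arrays.

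Among the transcription factors, Fos, which pairs with Jun proteins to form AP-1, was at 0.06, 0.96, 0.88 and 0.49 with CCH and 0.13, -0.16, 0.05 and -0.28 without (0.66 ± 0.20, adjusted p = 0.239). Egr4, a zinc finger factor, was at 4.34, 4.68, 5.01 and 4.85 against 4.44, 4.17, 4.34 and 3.91 (0.51 ± 0.15, adjusted p = 0.234). In both, CCH array 1 fell within the control range. Nr4a1, an orphan nuclear receptor, was at 5.18, 5.73, 5.74 and 5.65 against 5.40, 5.0, 5.08 and 4.95 (0.47 ± 0.17). Its relative Nr4a2 was at 3.29, 3.59, 3.44 and 3.08 against 3.00, 2.71, 2.59 and 2.68 (0.60 ± 0.22). Nr4a2 is thus an early gene in which CCH array 1 was above all control arrays. Maff, a small Maf protein, was at -1.60, -1.52, -0.86 and -1.67 against -1.94, -2.11, -2.67 and -2.66 (0.93 ± 0.33), and Klf4, a Krüppel-like factor, was at 1.73, 1.42, 1.97 and 1.52 against 1.12, 1.22, 1.01 and 0.96 (0.58 ± 0.20). These also kept the groups apart.

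The synaptic effector Arc, which drives removal of AMPA receptors from synapses, was at 5.0, 5.53, 5.81 and 5.46 with CCH and at 5.21, 4.77, 4.77 and 4.85 without (0.55 ± 0.18). Egr2 differed by 0.79 ± 0.29, with CCH array 3 at 2.19 the highest of the 8. Npas4, a factor induced by calcium entry, differed by 0.62 ± 0.24, with control array 3 at 1.03 above CCH arrays 1 and 4 at 0.38 and 0.90. Fosl2 differed by 0.40 ± 0.14, but its other probe differed by -0.68. Of 7 other probes of early genes, 6 were higher, with a median of 0.16. Under normexp 23 of the 27 were higher with a median of 0.39, and in SAM/P-8 23 were higher with a median of 0.27. Beyond Fos and Egr4, the early genes named here were chosen after their values were seen, as were members past the leading pair in the lists that follow.

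**Figure D3:**
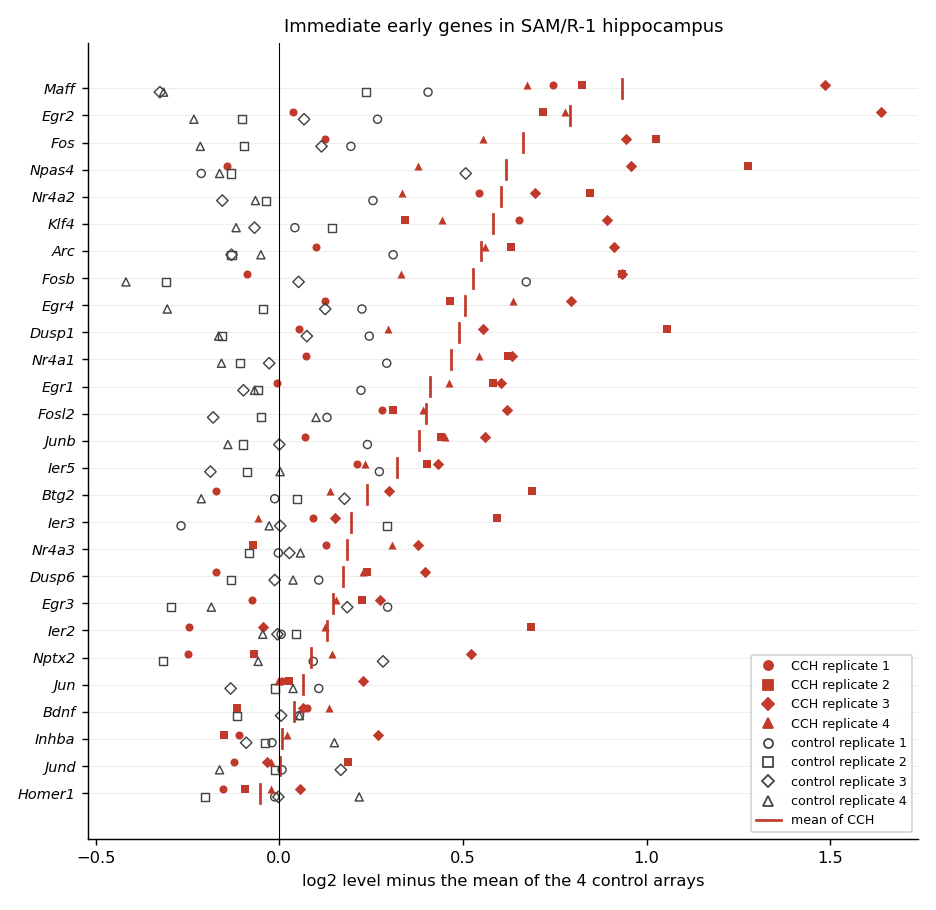
Each row is an immediate early gene, and each symbol is 1 of the 8 SAM/R-1 arrays, placed by its log2 level minus the mean of the 4 control arrays (x axis), with filled symbols for CCH, open symbols for control and a bar at the CCH mean. In Fos, Egr4, Arc and Nr4a1 the symbol of CCH replicate 1 lies among the control symbols, whereas in Maff, Klf4 and Nr4a2 the groups are apart.

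The promoter windows of early genes were searched for TGACG, the short form of the site bound by CREB-type factors, on both strands. It occurred in 17.8% of the 32851 windows and in 19.8% of genes, and in 15 of the 22 early genes with a window (68.2%). The full palindrome TGACGTCA, which overlaps the short form, occurred in 1.55% of windows, 1.77% of genes and 3 of the 22 (13.6%), and the CArG box in 1.47% of windows and 1 of the 22 (4.55%), Egr2. The windows of Nr4a1 and Fos are shown as those of an orphan receptor and an AP-1 gene described above, with TGACG or its reverse complement CGTCA in capitals.
Nr4a1 promoter, chr15:101266596-101266845, plus strand: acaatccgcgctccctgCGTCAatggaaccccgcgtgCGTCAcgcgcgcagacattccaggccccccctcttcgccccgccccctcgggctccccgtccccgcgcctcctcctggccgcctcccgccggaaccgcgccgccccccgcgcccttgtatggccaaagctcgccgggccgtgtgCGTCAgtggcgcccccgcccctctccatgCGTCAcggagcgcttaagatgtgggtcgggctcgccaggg
Fos promoter, chr12:85473640-85473889, plus strand: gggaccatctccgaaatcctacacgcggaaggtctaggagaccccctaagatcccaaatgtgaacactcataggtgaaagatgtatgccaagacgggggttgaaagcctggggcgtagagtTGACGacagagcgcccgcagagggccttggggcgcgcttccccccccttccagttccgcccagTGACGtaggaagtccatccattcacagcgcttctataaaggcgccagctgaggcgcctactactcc
Nr4a1 holds 4 such matches and Fos 2, at 61 and 124 bases before the start.

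Heat shock chaperones, which refold damaged proteins, were higher in 22 of 26 cases with a median of 0.09. No member passed the adjusted threshold, 7 had an unadjusted p under 0.05, all higher (4.77% of all genes), and 6 had no overlap, all with CCH above (4.22% of all genes). The stress-inducible Hsp70 gene Hspa1b was at 1.49, 1.10, 2.27 and 1.30 with CCH and 0.82, 0.42, 0.17 and 0.67 without (1.02 ± 0.33, adjusted p = 0.266). Hspa1a, a near-identical copy whose probes may read both, was at 3.20, 2.81, 3.92 and 2.95 against 2.59, 2.23, 1.92 and 2.53 (0.90 ± 0.31). In both copies CCH array 3 was highest and control array 3 lowest, and no CCH array fell into the control range. The small chaperone Hspb1 was at 0.20, -0.49, 0.44 and -0.31 against -0.72, -0.57, -1.16 and -1.28 (0.89 ± 0.32, adjusted p = 0.328). Fkbp4, an immunophilin that works with Hsp90, was at 1.54, 1.63, 1.59 and 1.53 against 1.26, 1.44, 1.20 and 1.32 (0.27 ± 0.08, adjusted p = 0.25), and the Hsp40 gene Dnajb1 differed by 0.52 ± 0.20. Other probes of chaperone genes were higher in 18 of 19 cases (median 0.13). Under normexp 15 of 26 were higher with a median of 0.06.

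The heat shock factor motif GAANNTTC was present in 6.69% of promoter windows and 7.73% of genes, and in 8 of the 20 chaperone genes with a window (40%). The windows of Hspa1b and Hspb1, which are among these 8, are printed with the motif in capitals. As a palindrome the motif reads the same on both strands.
Hspa1b promoter, chr17:34959239-34959488, minus strand: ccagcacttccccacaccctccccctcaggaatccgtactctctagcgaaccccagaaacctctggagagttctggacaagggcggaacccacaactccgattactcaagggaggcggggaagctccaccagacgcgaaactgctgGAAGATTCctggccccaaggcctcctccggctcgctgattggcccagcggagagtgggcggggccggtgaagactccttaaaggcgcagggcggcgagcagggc
Hspb1 promoter, chr5:135887669-135887918, plus strand: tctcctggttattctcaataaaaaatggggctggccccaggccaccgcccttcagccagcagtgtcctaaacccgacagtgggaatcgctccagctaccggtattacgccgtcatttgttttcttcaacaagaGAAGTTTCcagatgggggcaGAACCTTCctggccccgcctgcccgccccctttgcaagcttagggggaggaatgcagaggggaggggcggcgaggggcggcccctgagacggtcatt
The match lies 96 bases before the start of Hspa1b, and the matches of Hspb1 lie at 89 and 109 bases.

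Genes of the unfolded protein response, which is triggered by misfolded proteins in the endoplasmic reticulum, were higher in 17 of 25 cases with a median of 0.08. None passed the adjusted threshold, and 6 had an unadjusted p under 0.05, all higher (4.77% of all genes). Xbp1, the factor activated by splicing in this response, was at 0.38, 0.48, 0.65 and 0.43 with CCH and 0.16, 0.10, 0.23 and 0.12 without (0.33 ± 0.08, adjusted p = 0.159). The endoplasmic reticulum protein Creld2 was at 2.80, 2.79, 3.05 and 2.73 against 2.52, 2.57, 2.52 and 2.41 (0.34 ± 0.09, adjusted p = 0.177). Both genes kept the groups apart. The degradation factor Herpud1 differed by 0.24 ± 0.07 and the chaperone Hspa5 by 0.29 ± 0.13. In SAM/P-8, Creld2 differed by -0.02 and Xbp1 by 0.09, while the list was higher in 17 of 25 cases there too, with a median of 0.06. For no member did the limma test of the difference between strains pass the threshold (smallest adjusted p = 0.721).

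Genes of cholesterol and fatty acid synthesis were higher in 20 of 26 cases with a median of 0.08, and 7 had an unadjusted p under 0.05, all higher (4.77% of all genes). Elovl6, which lengthens palmitate, was at 2.26, 2.31, 2.32 and 2.33 with CCH and 2.16, 2.12, 2.03 and 2.14 without (0.19 ± 0.04, adjusted p = 0.0935). No CCH array overlapped the control range. The sterol carrier Stard4 differed by 0.26 and Cyp51, lanosterol demethylase, by 0.22. Glucocorticoid-responsive genes were higher in 16 of 19 cases with a median of 0.13, among them Tsc22d3, a leucine zipper induced by glucocorticoids, at 0.31 ± 0.11. Hif3a differed the other way, at -4.08, -4.12, -3.99 and -4.20 with CCH and -3.47, -3.69, -3.62 and -3.80 without (-0.45 ± 0.08, adjusted p = 0.0571). That difference became 0.08 under normexp, and its adjusted p was 0.0472 with median scaling. The co-chaperone Fkbp5 differed by -0.22.

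Transcripts of the energy and protein machinery differed slightly and mostly the other way. Among the 67 respiratory chain and ATP synthase genes, 63 had a negative difference, with a median of -0.07, and 17 an unadjusted p under 0.05, all lower (6.5% of all genes). None passed the adjusted threshold, at a smallest adjusted p of 0.179. The list's median level of 4.87 lies among the 10% brightest probes tested, of which 34.9% were higher with CCH whatever their gene. Uqcr11, a subunit of complex III, was at 5.48, 5.44, 5.41 and 5.45 with CCH and 5.53, 5.63, 5.61 and 5.60 without (-0.15 ± 0.04, adjusted p = 0.179). Ndufs8, an iron-sulfur subunit of complex I, was at 0.96, 0.93, 0.86 and 0.88 against 1.13, 1.12, 1.03 and 1.23 (-0.22 ± 0.06, adjusted p = 0.23). All CCH arrays lay below all control arrays in both. Cox7c differed by -0.19 and Ndufa5 by -0.12. With quantile normalization 56 of the 67 were lower and 6 had an unadjusted p under 0.05, while with normexp all 67 were lower with a median of -0.15. In SAM/P-8 the list had a median of -0.13.

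Mitochondrial ribosomal protein genes were lower in 44 of 46 cases with a median of -0.07, with Mrpl17 at -0.16. Cytoplasmic ribosomal protein genes were lower in 53 of 58 cases with a median of -0.05, but in 39 of 58 with quantile normalization, and Rps19 differed by -0.16. Proteasome genes were lower in 23 of 31 cases with a median of -0.04. Bright probes were mostly lower whatever their gene: 34.9% were higher with CCH among the 10% brightest probes tested, where most cytoplasmic ribosomal probes lie, and 43.5% among the next 10%, which hold the median of the mitochondrial ribosomal list. Markers of hippocampal principal neurons were lower in 15 of 20 cases with a median of -0.10. Of the 21 with a probe, 20 passed the filter on dim probes. Genes of glutamate receptors and their scaffolds were lower in 20 of 28 cases with a median of -0.07; Camk2a, the kinase of synaptic plasticity, was at 6.36, 6.41, 6.47 and 6.50 with CCH and 6.52, 6.58, 6.67 and 6.72 without (-0.19 ± 0.08, adjusted p = 0.436).

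Genes tied to what the supplement contains showed no joint direction. Of 36 genes of calcium and phosphate handling, 16 were higher and 20 lower, with a median of -0.01. Cyp27b1, which makes active vitamin D, was at -4.15, -4.08, -4.34 and -4.37 with CCH and -3.94, -3.96, -3.97 and -4.09 without (-0.25 ± 0.09, adjusted p = 0.347), but at a difference of 0.24 under normexp. The calcium release channel Itpr3 was at 0.88, 1.31, 0.87 and 1.00 against 0.66, 0.84, 0.78 and 0.61 (0.29 ± 0.12, adjusted p = 0.378), and the calcium pump Atp2b2 differed by 0.21. Of 37 antioxidant and NRF2 target genes, 12 were higher and 25 lower, with a median of -0.02 and none at an unadjusted p under 0.05. Gclc, the rate-limiting enzyme of glutathione synthesis, was at 1.17, 1.11, 1.11 and 0.99 against 0.97, 0.97, 0.82 and 0.96 (0.16 ± 0.08, adjusted p = 0.464), while glutathione reductase Gsr differed by -0.12 and superoxide dismutase Sod1 by -0.07.

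Genes studied in ageing showed no joint direction either. In the list of sirtuins, NAD and telomere genes, 11 of 21 were higher, with a median of 0.01. Tert, the catalytic subunit of telomerase, was at -4.59, -4.59, -4.76 and -4.64 with CCH and -4.10, -4.15, -4.11 and -4.23 without (-0.50 ± 0.09, adjusted p = 0.0565), and at a difference of 0.13 under normexp. Ppargc1a, a coactivator of mitochondrial genes, was at 2.62, 2.74, 2.57 and 2.54 against 2.38, 2.51, 2.31 and 2.20 (0.27 ± 0.08, adjusted p = 0.231). Both kept their groups apart. Mt3, the brain metallothionein, differed by -0.24 ± 0.07 (adjusted p = 0.23), and Irs1, an adaptor of the insulin receptor, by 0.31 ± 0.09 (adjusted p = 0.199). Amyloid and tau genes had a median of 0.02. Interferon genes had a median of -0.05 that became 0.20 under normexp, genes of antigen presentation one of -0.07 that became 0.02, and inflammation genes one of -0.06 that became 0.04.

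Markers of other cell types were counted beside these lists. Choroid plexus markers were lower in 14 of 15 cases, with a median of -0.81, but none had an unadjusted p under 0.05, and the CCH arrays split into high (1 and 4) and low (2 and 3). Ttr differed by -2.04 ± 1.62 (adjusted p = 0.684), and Kl, the ageing-suppressor hormone klotho, was at 1.18, -1.36, -1.01 and 0.90 with CCH and 0.82, 1.32, 0.33 and -0.41 without. Fewer choroid plexus cells and less RNA per cell cannot be told apart in such bulk samples. Red blood cell genes were lower in 6 of 7 cases with a median of -0.40, and Hba-a1, an alpha globin, was at 4.21, 4.0, 4.27 and 4.76 against 5.04, 5.11, 4.46 and 4.21. Markers of the meninges and fibroblasts were higher in 15 of 18 cases with a median of 0.21. Endothelial and pericyte markers were higher in 15 of 22 cases with a median of 0.14; the pericyte gene Rgs5 was at 0.20, -0.29, -0.01 and 0.01 with CCH and -0.37, -0.42, -0.36 and -0.48 without (0.39 ± 0.10, adjusted p = 0.179), and the VEGF receptor Flt1 at 2.87, 2.62, 2.43 and 2.52 against 2.19, 2.14, 2.40 and 2.11 (0.40 ± 0.12, adjusted p = 0.234). Neither overlapped. Against the 15 higher markers of this list 7 were lower, among them Pdgfrb at -0.20 and Ocln at -0.18. In SAM/P-8 the endothelial list had a median of 0.01.

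The neural cell types differed less. The interneuron list had a median of 0.10 (14 of 16 higher), newborn neurons 0.13, astrocytes 0.04, oligodendrocytes 0.00 and microglia -0.09 (14 of 20 lower). Markers of neighbouring regions that dissection could add had medians of 0.10 for neocortex, 0.11 for thalamus and habenula and -0.03 for striatum. Ependymal markers had a median of -0.15, and pituitary and hypothalamic hormones one of -0.12, which became 0.25 under normexp. Of all 40 lists, covering 948 measured entries, none held a member past the adjusted threshold.

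**Figure D4:**
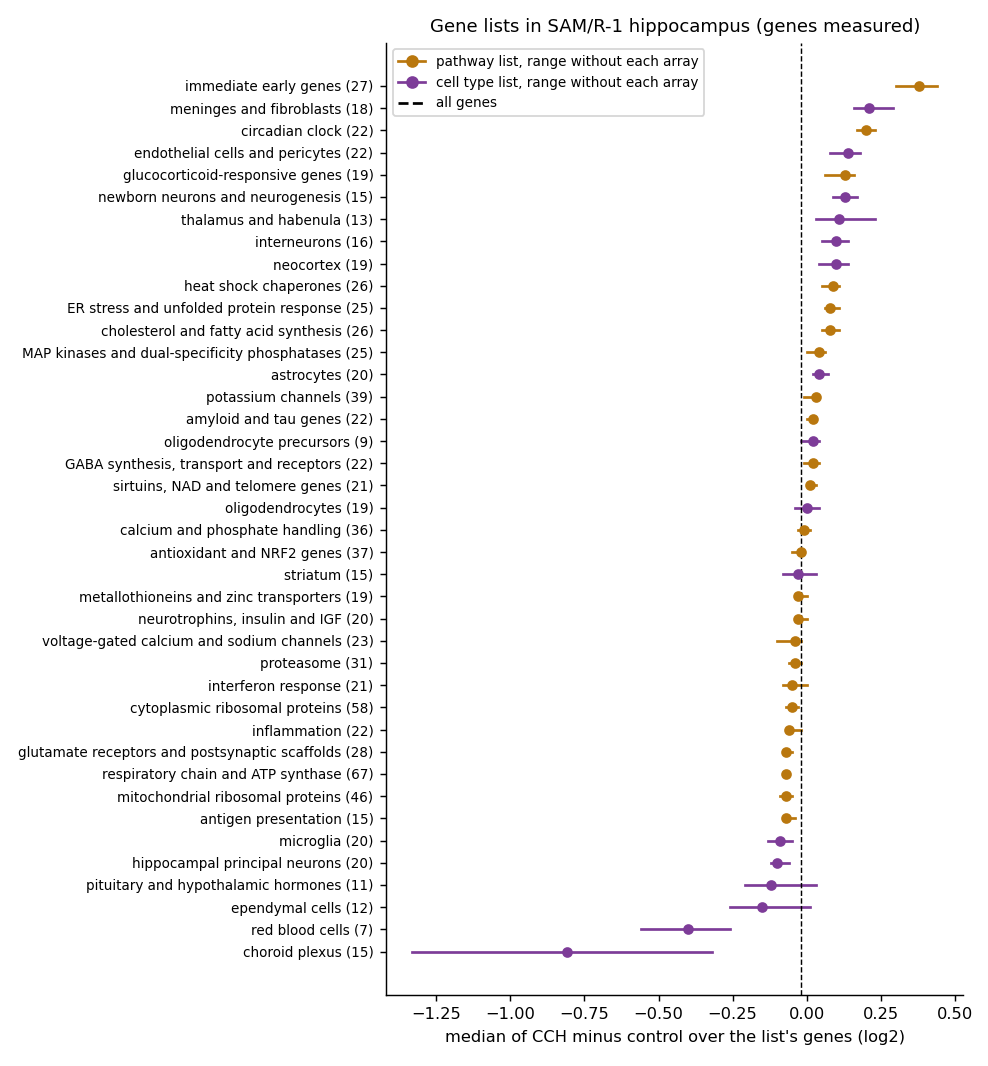
Each row is 1 of the 40 gene lists, and the point is the median over its genes of the difference between CCH and control (x axis, log2), with a line for the range of that median when each SAM/R-1 array is left out in turn; colours separate pathway from cell type lists, and the dashed line is the median of all genes. Immediate early genes lie at 0.38 and clock genes at 0.20, and the choroid plexus line runs from -1.33 to -0.32.

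Differences of 2-fold or more were found in 52 genes, 18 higher and 34 lower, and none of them passed the adjusted threshold. For 25 of the 52 the lower group was not well above background on all its arrays, so they were tested only through the group where they were high, and their folds are against signal near background. Their median level was -5.10, and 28 of the 52, chosen here for their size, had no overlap (4.22% of all genes with CCH above, 5.67% below). Choroid plexus markers made up 6 and olfactory receptors another 6. The smallest adjusted p among them was 0.0671, for the amino acid transporter Slc7a9, whose control array 4 stood at -2.92 against -5.85 to -5.62 on the other control arrays and of whose 4 CCH arrays 1 was well above background.

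The effect of CCH in SAM/R-1 was set against that in SAM/P-8, which shares no array with it. Over all genes the effects correlated at r = 0.332 (Spearman's rho 0.456), a value across genes, which are not independent replicates, and 68.4% of genes had the same sign. More probes passed the threshold in SAM/P-8, 224 (0.778%), and 5 passed in both lines. In the test of the difference itself, 36 probes (0.125%) passed, of which 32 had effects of opposite sign in the lines, 14 had also passed in SAM/R-1 and 18 in SAM/P-8. Each of the 4 groups lay on its own slide, so strain, feed and slide cannot be told apart in these differences either.

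Of the 36 probes 18 have a gene name, and in 5 of these genes the SAM/R-1 effect was small beside that in SAM/P-8. Mxd3, a MAX-binding repressor of the MYC network, was at -4.91, -4.67, -4.92 and -4.87 with CCH and -4.98, -4.71, -4.56 and -4.97 without in SAM/R-1, but at -2.54, -2.81, -2.76 and -2.75 against -5.07, -4.90, -5.50 and -4.76 in SAM/P-8. The effects of -0.04 and 2.34 differed by -2.38 ± 0.19 (adjusted p = 5.3e-05). Tnc, the matrix protein tenascin C, had effects of 0.16 in SAM/R-1 and -2.09 in SAM/P-8, a difference of 2.25 ± 0.28 (adjusted p = 0.0034). The zinc finger gene Zbtb7c had effects of 0.22 and -2.45, a difference of 2.67 ± 0.32 (adjusted p = 0.00276), and AY761185 effects of -0.36 and -2.93, a difference of 2.58 ± 0.34 (adjusted p = 0.00459). Stc1, the calcium-regulating hormone stanniocalcin, named after its values were seen, was at -3.88, -3.76, -3.56 and -3.93 with CCH and -3.96, -3.77, -3.84 and -3.84 without in SAM/R-1. Its effects of 0.07 and -0.66 differed by 0.73 ± 0.11 (adjusted p = 0.0188). For Tnc and Zbtb7c only 2 of 4 SAM/P-8 CCH arrays were well above background. A further probe of Mxd3, Tnc, Zbtb7c and Stc1 had SAM/R-1 effects of 0.01, -0.06, 0 and -0.05. The SAM/P-8 effects of those further probes are not given here.

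In the other 13 named genes the level with CCH was lower in SAM/R-1 and higher in SAM/P-8. Foxe3 had effects of -0.89 and 0.52 (difference -1.41 ± 0.13, adjusted p = 0.000173), Spem2 of -0.75 and 0.43 (-1.18 ± 0.16, adjusted p = 0.00459) and F9 of -0.93 and 0.64 (-1.57 ± 0.23, adjusted p = 0.00982). Tert had an effect of -0.50 in SAM/R-1, and was at -4.72, -4.58, -4.55 and -4.58 with CCH against -5.03, -4.91, -5.0 and -5.44 without in SAM/P-8, where the effect was 0.48 (difference -0.98 ± 0.13, adjusted p = 0.00459). Mob3a, a MOB kinase activator, had effects of -0.23 and 0.19 (-0.42 ± 0.06, adjusted p = 0.0121), and Bub1 of -0.87 and 0.16 (-1.03, adjusted p = 0.0213). Olfr1215 had effects of -0.83 and 0.33 (-1.17 ± 0.17, adjusted p = 0.0102), with no SAM/P-8 array well above background. On the SAM/P-8 control arrays Foxe3 was well above background on 1 of 4, and F9 and Tert on 3 of 4. Kcp, Kmt5c, Hspa1l, Olfr103, Olfr1317 and Olfr615 made up the rest, with differences of -2.86 to -0.50. Hspa1l and the 3 receptors had no SAM/P-8 control array well above background. In SAM/R-1, 0 of 4 CCH arrays were well above background for Olfr103 and 3 of 4 for Olfr615. Both were thus tested only through the SAM/R-1 control group. The -2.86 is that of Olfr103, which in each line had a group with no array well above background. Under normexp no probe passed this test either (230 had an unadjusted p under 0.05), although Mxd3 at -1.03, Zbtb7c at 1.15, Tnc at 0.96 and AY761185 at 1.70 kept their sign.

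**Figure D5:**
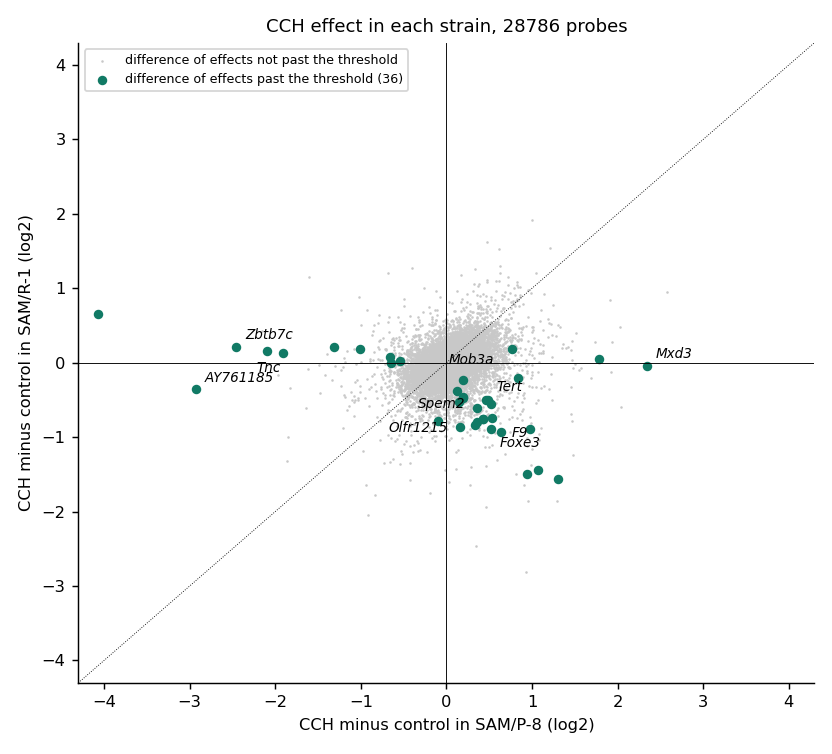
Each of 28786 points is a probe, placed by the effect of CCH in SAM/P-8 (x axis, log2 difference) and in SAM/R-1 (y axis, log2 difference), with the 36 probes whose effects differed past the adjusted threshold coloured and a dotted line where both effects are equal. Mxd3 lies far to the right at 2.34 and Zbtb7c, Tnc and AY761185 far to the left with small SAM/R-1 effects, while Foxe3, F9, Spem2 and Tert lie below 0 in SAM/R-1 and above 0 in SAM/P-8.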

How the data were processed

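Total RNA from hippocampus, with an RNA integrity number above 9 per the labels, was hybridised to 16 one-colour Agilent arrays. The deposited processed signal is an intensity, background-subtracted and detrended within each array by Agilent Feature Extraction 9.5.3.1, per the file headers (design build mm9). The authors' table of log2 values, deposited with no stated steps, matched these signals after centring each probe and served as an alternative. Control spots and outlier spots were left out, spots of a probe were averaged, and log2 signals were reduced by each array's 75th percentile. Probes were named through RefSeq accessions (GRCm38.p6): 24844 of 41174 matched, and 16330 stayed unnamed. Group means over all 16 arrays were fitted with limma 3.58.1 (R 4.3.3) and adjusted by the Benjamini-Hochberg method at 0.05; unadjusted p-values are from the same fit. In counts of genes and in lists a gene is represented by its brightest probe; genes named from the probe test are given at the probe that the rule chose. The code was tested on simulated data. No counts or depths apply to arrays, and their number limits the precision.

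The members and gene lists were chosen with earlier results of these data known. Named genes were the 15 largest falls past the threshold and the rises filled up to 10 by the smallest p. Both were taken only from probes whose CCH and control arrays did not overlap. Added to these were the 10 smallest p for the difference between strains and the leading pair of each list. Others are named as chosen after their values were seen. Alternatives were normexp (offset 50) on the median signals, quantile normalization, median scaling, other filters, the 8 arrays alone, a trended prior, the deposited table, a replicate block and leaving out each array. The 8 SAM/P-8 arrays enter the fit for the spread and the comparison of strains. Some list members are counted in their list but not reported here by name.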

Additional observations from a re-analysis of the deposited data

Results flagged for a closer look

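In 340 groups of 4 arrays, 17 (5%) held an array far from the other 3, and chance alone sets apart about 1 in 20. Among the CCH arrays these were Ppp2r5e on replicate 2 at 0.85 (others 1.00 to 1.02), Mrps16 on replicate 3 at 4.02 (others 4.10 to 4.11), Erbb4 on replicate 4 at -4.86 (others -4.49 to -4.42) and Kdr on replicate 1 at -0.91 (others -1.43 to -1.37). The mean deviation of the list of MAP kinases and dual-specificity phosphatases stood at 0.08 on CCH replicate 3. Among the control arrays, replicate 1 stood apart for Muc5ac at -5.24, Psmb8 at -1.71, Ccl4 at -5.32 and Spred1 at -3.02. Control replicate 4 did so for the proteasome genes Psmc5 at 3.40 and Psma7 at 4.55, for the gamma-secretase subunit Psenen at 1.89 and for the chaperone Hspa5 at 4.15. Control replicate 2 stood apart for Fmod at -2.42 and Arntl at 0.36, and control replicate 3 for Gclc at 0.82 and Npas4 at 1.03 (others 0.31 to 0.39).

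The effect of CCH differed between SAM/R-1 and SAM/P-8 in the limma test of that difference for 18 named genes, 7 of them outside the rule for named genes and given last in each direction. It was lower in SAM/R-1 by -2.38 for Mxd3, -1.57 for F9, -1.41 for Foxe3, -1.18 for Spem2, -1.17 for Olfr1215, -1.03 for Bub1, -0.98 for Tert and -0.42 for Mob3a, and by -2.86 for Olfr103, -1.87 for Olfr1317, -1.18 for Olfr615, -0.97 for Hspa1l, -0.96 for Kmt5c and -0.50 for Kcp. It was higher in SAM/R-1 by 2.67 for Zbtb7c, 2.58 for AY761185, 2.25 for Tnc and 0.73 for Stc1. None of these passed under normexp. Olfr103 had no SAM/R-1 CCH array and no SAM/P-8 control array well above background.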

How the results depend on the processing

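With normexp background correction no probe passed for CCH in SAM/R-1 (0 of 36) or for the difference between strains (0 of 36), and 17 genes named by the rule turned from negative to positive differences: Tas2r118 to 0.26, Sit1 to 0.12, Foxe3 to 0.15, Olfr1215 to 0.24, Muc5ac to 0.32, Spem2 to 0.00 (rounded), Olfr1307 to 0.32, Ly6g5c to 0.19, Olfr166 to 0.24, Inhbe to 0.28, Olfr1350 to 0.12, Tap1 to 0.31, Cyp27b1 to 0.24, Spag6 to 0.05, Hif3a to 0.08, Ghrh to 0.15 and Tert to 0.13. Of the genes named after their values were seen, Olfr549 turned to 0.13, and of those named for the strain difference Mob3a turned to 0.08, Kmt5c to 0.02, Hspa1l to 0.29, Olfr103 to 0.13, Olfr1317 to 0.14 and Olfr615 to 0.32 in SAM/R-1. The cause was not tested. A trended prior left 9 probes, 1 higher and 8 lower. Leaving out each array gave 2 to 47 probes for CCH in SAM/R-1, with the lowest count without SAM/R-1 control array 3, and 25 to 43 for the difference between strains. Deviations of same-numbered CCH and control arrays correlated at -0.19 to 0.06 over the probes, so the replicate numbers were not taken as pairs. The replicate number is also the array's position on its slide. A replicate block, and thus a block of position, gave 0 probes over the 8 arrays (3504 at an unadjusted p under 0.05). Over 16 arrays it gave 26 for the strain difference. Other counts stayed within 1.5 times of 36: 43 with quantile normalization (15 higher, 28 lower, 26 shared), 44 with median scaling, 46 with no filter, 27 with probes well above background on all 8 arrays, 26 with the 8 arrays alone and 32 with the deposited table. For the strain difference quantile normalization gave 24, 12 in each direction against 10 and 26 otherwise, and no filter 51. Among lower genes not past the threshold, Hif3a passed with median scaling (adjusted p = 0.0472). Of the higher ones, Katnal1 and Cdh5 (adjusted p = 0.0443 for each) and Creb1 and Xdh (0.0411 for each) passed with quantile normalization, and Per2 without CCH array 2 (0.0409). The dimmest probes limit the precision: the lowest signal well above background lay at -6.84 to -6.07 on the CCH arrays and -6.21 to -5.92 on the control arrays.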
